A study of Mus musculus with 6 samples.

Results

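The integrin, laminin and collagen genes of the mouse brain were followed in ribosome-bound RNA 3 days after an experimental stroke. Members were chosen by gene symbol alone: names that begin with Itga, Itgb, Lama, Lamb, Lamc or Col followed by a chain number, and Itgav. The rule found 39 of the 12968 genes in the deposited table. Of these, 36 encode chains of the 3 families, namely 7 integrin alpha chains, 6 integrin beta chains, 8 laminins and 15 collagens. The other 3 only share the name: Itgb1bp1 encodes a protein that binds the tail of the integrin beta 1 chain, Itgb3bp a centromere protein, and Col4a3bp the ceramide transporter now called Cert1. RefSeq lists 80 genes with such names, and 42 of them, among them Col3a1, Itga1 and Lama1, are not analysed here.

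Each library came from 1 mouse of a RiboTag line, in which cells that carry Cre recombinase make a tagged ribosomal protein, which lets ribosomes be precipitated with their bound RNA. The series title names the astrocyte; a Cre driver, strain, age or sex is not stated in the labels. The middle cerebral artery was occluded for 1 h (MCAO) in 3 mice, and 3 control mice had no occlusion; a sham operation is not described. The middle section of the left hemisphere was taken in both groups, RNA from 2 precipitations per mouse was pooled, and polyA RNA was sequenced. Replicate numbers only name a mouse.

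Integrins are receptors made of an alpha and a beta chain that cross the cell membrane and tie the matrix outside to actin inside. Laminins are cross-shaped trimers of an alpha, a beta and a gamma chain, and with type IV collagen they form the basement membrane that separates the brain's vessels from the astrocyte end-feet around them. Fibrillar collagens bear tension in connective tissue and in scars, whereas other collagens form beaded filaments, decorate fibrils or stay in the plasma membrane.

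The bases before the transcription start are shown for 2 of the 3 members whose RNA differed by the test described below, Itgb8 and Col16a1. The third, Itgb2, is among the 13 members without an entry for these bases. The windows were searched for the GC box to which Sp family factors can bind. Sequences are from RefSeq (GRCm38.p6), 5′ to 3′ on the strand of the gene, and capitals mark GGGCGG or its reverse complement CCGCCC. The Itgb8 window is chr12:119238277-119238526 on the minus strand. The Col16a1 window is chr4:130047590-130047816 on the plus strand, cut from 250 to 227 bases so that it stops where the annotated gene span begins, and the noncoding gene Gm12963 is also annotated there.
Itgb8: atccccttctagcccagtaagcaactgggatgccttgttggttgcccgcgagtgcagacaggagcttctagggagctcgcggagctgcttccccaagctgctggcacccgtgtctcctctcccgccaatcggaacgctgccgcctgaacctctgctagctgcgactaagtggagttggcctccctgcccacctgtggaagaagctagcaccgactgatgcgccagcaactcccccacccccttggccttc
Col16a1: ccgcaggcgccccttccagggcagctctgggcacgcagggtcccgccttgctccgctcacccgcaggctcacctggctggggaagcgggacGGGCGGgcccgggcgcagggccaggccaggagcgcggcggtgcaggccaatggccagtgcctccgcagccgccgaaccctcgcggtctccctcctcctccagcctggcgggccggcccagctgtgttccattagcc
The Itgb8 window held 0 matches and the Col16a1 window 1. In windows of 250 bases before a start, 19 of the 29 windows of the 26 members with an entry held the motif, as did 32.7% of all 32851 windows in the table. The member windows were also richer in G and C, with a median of 62.0% (range 43.6% to 75.6%) against 52.4% over all windows. The 2 sets are unlike, since all windows belong to 27025 genes and members were taken from the 12968 genes with values. Neither difference is therefore read as a trait of these families. A match is a stretch of letters and was not tested as a binding site.

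The values are read counts divided by 1 scale factor per library, called scaled reads here. They depend on transcript length, so that the levels of different genes are not ranked, and only shifts between the groups are read. Recovered reads per library ranged from 882263 in MCAO 2 to 9519548 in control 1, and 1 read was worth 0.288 scaled reads in control 1 and 3.11 in MCAO 2. MCAO 2 had the lowest value of all 6 libraries for 20 of the 39 members, and control 2 for 8. All 10 astrocyte markers on a fixed list were in the table. Their sum was 43050, 25823 and 41300 scaled reads in controls 1, 2 and 3. In MCAO 1, 2 and 3 it was 25594, 31072 and 33823. Control 2 lay within the MCAO range, whereas controls 1 and 3 lay above every MCAO library. The part of this difference in the member values was not tested. All 10 neuronal markers were there too, at 15152 to 17628 and 14295 to 17075. In such bulk ribosome precipitates, fewer cells of a type, less RNA per cell and a smaller part of it precipitated cannot be told apart.

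Most integrin, laminin and collagen genes showed no change that passed the test after MCAO, and the 3 that did were Itgb2 and Col16a1, which rose, and Itgb8, which fell. With a mean of at least 10 scaled reads over the 6 libraries, 37 members entered the test (limma on log2 values over 12549 genes, with adjustment over all of them, called at an adjusted p under 0.05). Called were 3 of 37, or 8.11%, where 3.08% of all tested genes were called. In the higher direction 2 members were called, against 2.30% of tested genes, and in the lower direction 1, against 0.789%. The median log2 change (MCAO over control) was -0.13 over the members and -0.01 over all tested genes, and 24 members had a negative value. The groups did not overlap, in either direction, for 11 of the 37 members, or 29.7%, and for 24.9% of tested genes. At an unadjusted p under 0.05 there were 8 members, where 19.3% of tested genes reached it. By edgeR 4 members were called, against 4.14% of tested genes.

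Among integrin beta chains, which pair with alpha chains to set ligand and cell type, the largest change was that of Itgb2, the shared beta chain of the leukocyte integrins. It stood at 10.1, 8.87 and 10.6 scaled reads in controls 1, 2 and 3 and at 86.5, 80.9 and 121 in MCAO 1, 2 and 3. The groups were far apart. The controls lay close together, but on only 35, 5 and 7 recovered reads in controls 1, 2 and 3, so their small spread is not read. Their mean is under 10, so the gene entered the test through its MCAO values. Its mean went from 9.84 ± 0.871 to 96.2 ± 21.9 (SD, n = 3 each), which is 9.78-fold higher, and limma gave a log2 change of 3.15 (SE 0.30, adjusted p = 4.01e-05), on 47 recovered reads in the controls together and 355 after MCAO. Itgb2 lies at chromosome 10, 77530329 to 77565708, and was called in all 17 alternative analyses.

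Microglia express Itgb2, and their markers rose in the same libraries. Of 16 listed microglia markers 12 were called higher and 0 lower, with a median log2 change of 1.89, and their summed level was 770 to 983 scaled reads in controls and 2588 to 3398 after MCAO. Of 10 listed blood myeloid markers 3 were in the table and 2 were tested, Lyz2 (log2 change 2.42, SE 0.28) and the growth factor receptor gene Csf3r (2.51, SE 0.57); both rose. Csf3r, with a control mean of 2.86 scaled reads, entered the test through its MCAO mean of 21.0, and was called without control 2 but not with any other library left out (adjusted p 0.0548 to 0.121). Ccr2, Ly6c2, S100a8 and S100a9 are not analysed here. The part of these cells in the Itgb2 value was not tested. Itgam, an alpha chain that pairs with Itgb2 on myeloid cells and lies outside the naming rule, was at 19.6, 55.0 and 28.7 scaled reads in controls and 134, 52.9 and 103 after MCAO. Control 2 and MCAO 2 overlap there, and its log2 change of 1.49 (SE 0.38) was not called (adjusted p = 0.0502). Itgam was called without control 2 (adjusted p = 0.0159), without MCAO 2 (0.0178) and by edgeR (0.00557).

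**Figure D1:**
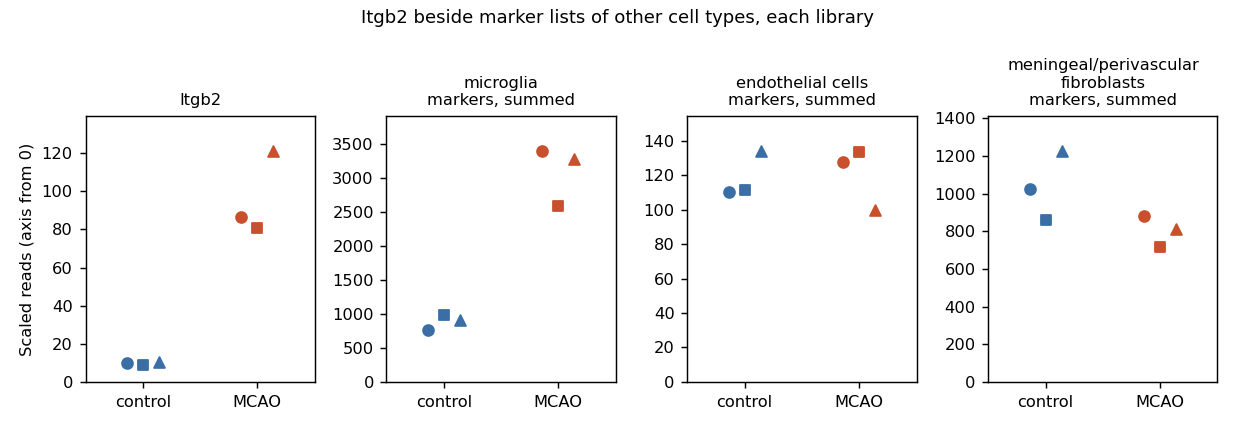
Each point is a library, in scaled reads on an axis from 0: Itgb2, then the summed markers of microglia, endothelial cells, and meningeal and perivascular fibroblasts; marker shapes stand for replicates 1 (circle), 2 (square) and 3 (triangle). The microglia sum lies at 770 to 983 in controls and 2588 to 3398 after MCAO, and the endothelial sums overlap.

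Itgb8, whose product joins the alpha chain from Itgav into a receptor that activates latent TGF-beta, fell after MCAO. It was at 403, 323 and 376 scaled reads in controls and 255, 159 and 233 after MCAO. Every MCAO library lay below every control, with MCAO 2 the lowest. The means were 367 ± 40.6 and 215 ± 50.4 (SD, n = 3 each), and limma put the log2 change at -0.79 (SE 0.18, adjusted p = 0.0353). The gene lies at chromosome 12, 119162803 to 119238276. Its call was lost without control 1 (adjusted p = 0.126), control 3 (0.0983), MCAO 2 (0.0978) or MCAO 3 (0.0806), where the log2 change was -0.86 to -0.58, and without an intensity trend in the variance (0.179).

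The other beta chains did not pass the test. Itgb5, which pairs with the Itgav chain to bind vitronectin, was at 329, 227 and 324 scaled reads in controls and 413, 386 and 457 after MCAO. Itgb1, the common partner of most alpha chains that bind matrix, was at 275, 211 and 303 in controls and 358, 333 and 402 after MCAO. In both genes the groups did not overlap and control 2 was the lowest library. The log2 changes were 0.53 for Itgb5 (95% interval 0.17 to 0.89, adjusted p = 0.107) and 0.48 for Itgb1 (0.12 to 0.83, adjusted p = 0.135). With library weights, chosen after seeing the data, both were called (adjusted p = 0.0479 and 0.0427), the only 1 of 17 alternatives that did so. Without control 2 the log2 changes were 0.35 for Itgb5 (adjusted p = 0.222) and 0.33 for Itgb1 (0.281). Itgb3, a chain of platelets and of vessels, had means of 18.5 ± 4.12 and 22.9 ± 2.17 scaled reads, with overlapping groups. Itgb4, the partner of the Itga6 chain on laminin, had means of 68.6 ± 11.4 and 62.7 ± 10.01, also overlapping; its annotated span shares bases with Galk1.

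Because Itgb5 and Itgb8 chains use the same alpha chain, the difference of their log2 values within each library is given, as a description without a test, since the pair was chosen after both were seen to move apart. Itgb8 minus Itgb5 on the log2 scale was 0.29, 0.51 and 0.21 in controls and -0.69, -1.28 and -0.97 after MCAO. The sign itself depends on transcript length and is not read. The mean shift was -1.32, and the choice of the pair fixes its direction. Their common partner gene Itgav was at 290, 282 and 309 scaled reads in controls and 373, 174 and 342 after MCAO. MCAO 2 stood below all controls and the other MCAO libraries above them, and the log2 change was -0.06 (95% interval -0.56 to 0.43), or 0.28 without MCAO 2.

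**Figure D2:**
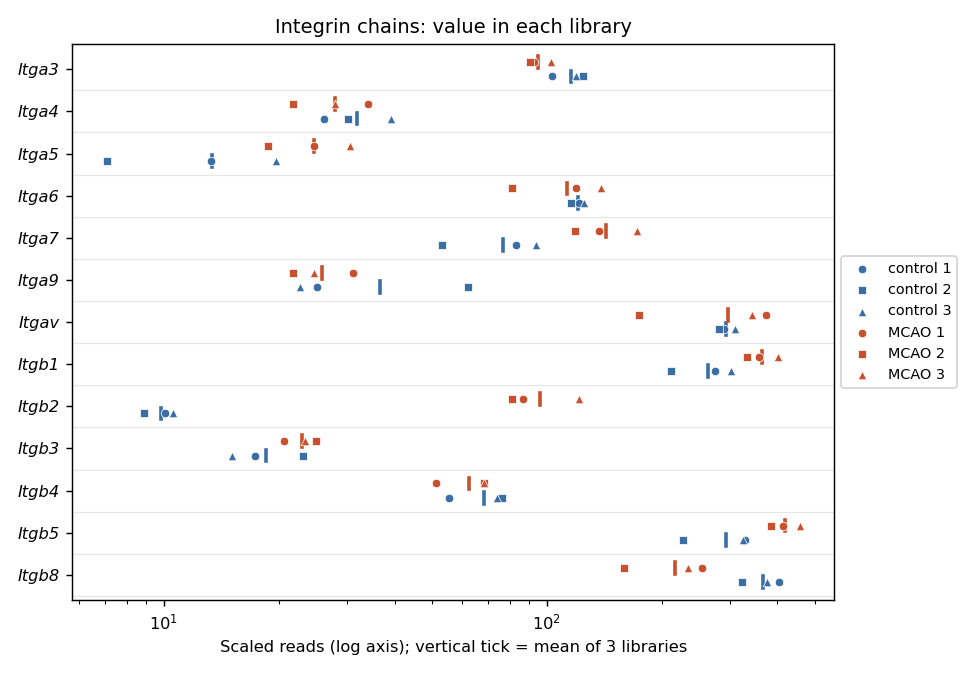
Each row is an integrin chain and each point a library, in scaled reads on a log axis; blue is control, orange is MCAO, and vertical ticks are means of 3 libraries. Itgb2 and Itgb8 show groups apart in opposite directions, and the MCAO values of Itgav run from 174 to 373.

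Of the 7 integrin alpha chains 0 were called by limma, and their median log2 change was -0.13. At an unadjusted p under 0.05 there was 1, Itga7, which edgeR called. Itga7, a laminin receptor chain of muscle and glia, was at 83.2, 53.2 and 93.6 scaled reads in controls and 137, 118 and 172 after MCAO. All MCAO libraries lay above all controls. Its log2 change was 0.91 (SE 0.23), with an adjusted p of 0.0513 just above the threshold. It was called under 7 of the 17 alternatives, among them edgeR's quasi-likelihood test on recovered reads (adjusted p = 0.0228), robust moderation (0.0406) and removal of control 3 (0.0455). The 7 include library weights and the removal of control 2 and MCAO 2, both chosen after seeing the data. Itga7 was not called, among others, without control 2 (log2 change 0.67, adjusted p = 0.118), MCAO 3 (0.192) or an intensity trend (0.183). Mettl7b, which is not analysed here, shares bases with the Itga7 span at chromosome 10, 128933421 to 128958286.

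The other laminin-binding alpha chains did not follow Itga7. Itga3 was at 103, 124 and 119 scaled reads in controls and 92.4, 90.2 and 103 after MCAO, where MCAO 3 lay just under control 1, and its log2 change was -0.28 (95% interval -0.67 to 0.12). Itga6, also used by vessel and stem cells, had means of 121 ± 5.02 and 113 ± 29.3, with the MCAO libraries on both sides of the controls. Itga5, the fibronectin receptor chain, was at 13.2, 7.10 and 19.6 scaled reads in controls and 24.7, 18.7 and 30.6 after MCAO. Control 3 and MCAO 2 overlap narrowly, and its log2 change of 0.92 has a 95% interval of -0.04 to 1.87. Itga4, a receptor chain for Vcam1 and fibronectin whose span shares bases with Cerkl, had means of 31.9 ± 6.69 and 28.0 ± 6.18. Itga9, a receptor chain for tenascin C, had a control range of 22.6 to 62.1, set by control 2, and an MCAO range of 21.8 to 31.2.

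Of 7 tested laminin chains 0 were called (0 at an unadjusted p under 0.05 and 0 by edgeR), and 5 had negative log2 changes. Lama2, the alpha chain of the laminin at astrocyte end-feet, was at 78.9, 58.5 and 78.5 scaled reads in controls and 52.9, 49.8 and 55.3 after MCAO. The groups did not overlap, and the log2 change was -0.43 (95% interval -0.92 to 0.05, adjusted p = 0.319). Lamb1 and Lamc1, the beta and gamma chains that most often join it, had log2 changes of -0.28 and -0.31. Lamb1 was at 58.4, 101 and 81.5 in controls and 68.8, 52.9 and 72.6 after MCAO, and Lamc1 at 119, 105 and 151 and at 115, 77.8 and 111. In both genes the groups overlapped and MCAO 2 was the lowest library. Lamb2, the beta chain prominent in vessel walls, was at 193, 199 and 171 in controls and 164, 131 and 201 after MCAO, with a log2 change of -0.20 (95% interval -0.59 to 0.19).

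The alpha chains of endothelial basement membranes had few reads. Lama4 had means of 14.6 ± 5.68 and 14.1 ± 4.94 scaled reads, and Lama5 12.5 ± 6.54 and 12.5 ± 0.155. Their log2 changes of -0.04 and 0.14 had 95% intervals of -1.08 to 0.99 and -0.99 to 1.27, which reach or nearly reach a 2-fold change in both directions. Lamc3 had a mean of 9.18 over all libraries and was not tested.

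**Figure D3:**
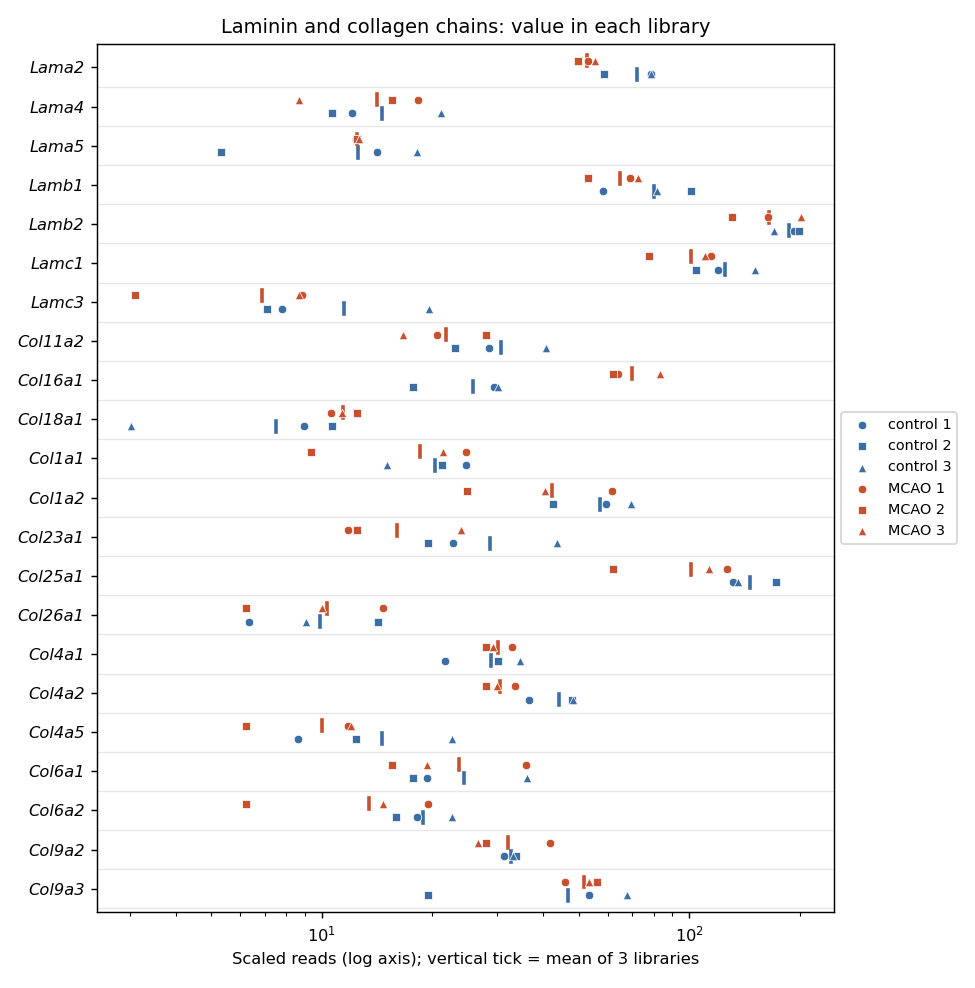
Each row is a laminin or collagen chain and each point a library, in scaled reads on a log axis; blue is control, orange is MCAO, and vertical ticks are means of 3 libraries. Only in Col16a1 do the MCAO libraries, at 62.2 to 83.3, all lie above the controls, at 17.7 to 30.2.

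Of 14 tested collagen chains Col16a1 rose and 0 fell. The log2 change was negative in 10 of them and its median was -0.33. Col16a1 encodes a fibril-associated collagen that binds integrins and sits at the edge of fibrils and basement membranes. It was at 29.4, 17.7 and 30.2 scaled reads in controls and 64.1, 62.2 and 83.3 after MCAO. The lowest MCAO library lay well above the highest control. Its mean went from 25.8 ± 6.96 to 69.9 ± 11.6 (SD, n = 3 each), 2.71-fold higher, and limma gave a log2 change of 1.43 (SE 0.29, adjusted p = 0.0160). Recovered reads were 102, 10 and 20 in controls 1, 2 and 3 (132 together) and 109, 20 and 125 in MCAO 1, 2 and 3 (254 together). These totals are not compared, since the libraries differ in depth. The call was lost without MCAO 3 (adjusted p = 0.104) and without an intensity trend (0.05004, just above the threshold). The gene lies at chromosome 4, 130047817 to 130099277, and 2 noncoding genes, Gm12963 and Gm46871, share bases with it.

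Scar collagens did not show such a shift. Col1a1, the main chain of type I collagen, was at 24.8, 21.3 and 15.1 scaled reads in controls and 24.7, 9.33 and 21.3 after MCAO. Its partner chain Col1a2 was at 59.3, 42.6 and 69.4 in controls and 61.8, 24.9 and 40.6 after MCAO. The groups overlapped in both, and the log2 changes were -0.21 (95% interval -1.16 to 0.73) and -0.48 (-1.18 to 0.22). Col11a2, another fibrillar chain, had means of 30.8 ± 9.06 and 21.7 ± 5.76. In the same libraries 0 of 11 meningeal and perivascular fibroblast markers were called, their median was -0.48, and their sum was 862 to 1227 scaled reads in controls against 717 to 880 in MCAO libraries. Igf2, with the highest mean in that list, made up a large part of the sum, with means of 519 ± 70.8 and 367 ± 25.7. It was not called (log2 change -0.49, SE 0.15). The part of these fibroblasts in the collagen values was not tested.

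Both transmembrane collagens had negative log2 changes that were not called. Col25a1, a neuronal collagen first found in amyloid plaques, was at 132, 172 and 136 scaled reads in controls and 127, 62.2 and 113 after MCAO. The groups did not overlap, although MCAO 1 came close to control 1, and the log2 change of -0.59 (95% interval -1.12 to -0.06) was not called (adjusted p = 0.211). Without MCAO 2 it was -0.28, and -0.16 without both control 2 and MCAO 2. Col23a1 had means of 28.7 ± 13.2 and 16.1 ± 6.86 and a log2 change of -0.78 (SE 0.43), with overlapping groups. The beaded filament chains Col6a1 and Col6a2 had means of 24.4 ± 10.3 and 18.9 ± 3.40 in controls and 23.6 ± 10.8 and 13.4 ± 6.68 after MCAO. Of the fibril-associated type IX chains, Col9a2 had means of 32.8 ± 1.23 and 32.1 ± 8.37, and Col9a3 46.9 ± 24.8, with control 2 low at 19.5, and 51.7 ± 5.23. Col26a1 had means of 9.86 ± 3.99 and 10.3 ± 4.25. Col18a1, which yields endostatin, had a mean of 9.49 over all libraries and was not tested. In MCAO 2 as many as 12 of the 15 collagen chains had under 10 reads, so that library limits most of these comparisons.

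Col4a1 and Col4a2, the chains that together make the common type IV collagen trimer of basement membranes, lie head to head on chromosome 8, at 11198423 to 11312889 and 11312805 to 11449287, with an overlap of 85 bases. Col4a1 was at 21.6, 30.2 and 34.7 scaled reads in controls and 32.9, 28.0 and 29.3 after MCAO. Col4a2 was at 36.5, 47.9 and 48.3 in controls and 33.5, 28.0 and 29.97 after MCAO. Col4a1 therefore overlapped between groups, whereas Col4a2 was lower in every MCAO library. Neither was called (log2 change 0.08, SE 0.32, and -0.52, SE 0.28, adjusted p = 0.920 and 0.333).

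Within a library, Col4a1 minus Col4a2 was -0.73, -0.65 and -0.47 on the log2 scale in controls and -0.02, 0 and -0.03 after MCAO. The groups did not overlap, and the mean moved by 0.60, and the two-sided exact permutation test gave p = 0.1, its minimum with 3 mice per group. In reads, Col4a1 made up 37.1% of the pair in control 1 (75 against 127 reads, exact Clopper-Pearson 95% interval 30.4% to 44.2%), 38.6% in control 2 and 41.8% in control 3. After MCAO it made up 49.6% in MCAO 1 (56 against 57 reads, 40.0% to 59.1%) and 49.4% in MCAO 3, and both genes had the same number in MCAO 2 (9 against 9 reads, 26.0% to 74.0%). The shares depend on transcript length, and only their shift is compared. The intervals, which cover counting error only, overlap between the groups. Col4a5, a chain of another type IV trimer, had means of 14.6 ± 7.24 and 9.99 ± 3.27. The neighbouring chains Col6a1 and Col6a2 were compared in the same way as Col4a1 and Col4a2. Col6a1 minus Col6a2 had means of 0.29 in controls and 0.81 after MCAO. The shift was 0.51, with overlapping groups (exact permutation p = 0.2).

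**Figure D4:**
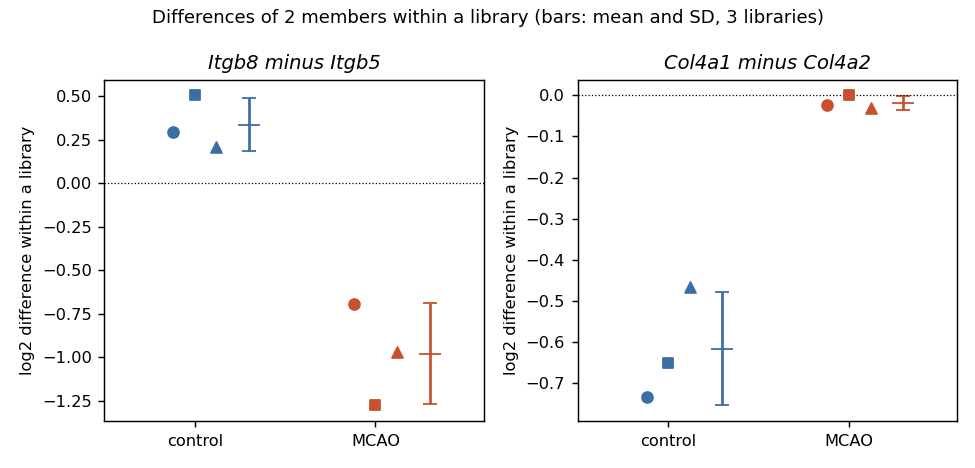
Points are the log2 difference of 2 members within each library, Itgb8 minus Itgb5 on the left and Col4a1 minus Col4a2 on the right, with mean and SD beside them; shapes stand for replicates 1 (circle), 2 (square) and 3 (triangle). The first pair was chosen after its values were seen and is a description; it runs from 0.21 to 0.51 in controls and from -1.28 to -0.69 after MCAO, the second from -0.73 to -0.47 and from -0.03 to 0.

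Col6a2, Col6a1, Col18a1 and Itgb2 follow each other on chromosome 10 with gaps of 85.2, 326 and 364 kb, and Itgb2 was called, Col6a1 and Col6a2 were not, and Col18a1 was not tested. Among the 3 genes that only share the name, 0 were called. Itgb1bp1 was at 67.3, 67.4 and 64.9 scaled reads in controls and 81.2, 87.1 and 75.9 after MCAO, Itgb3bp had a log2 change of -1.06 (SE 0.54) and Col4a3bp -0.40 (SE 0.18). Only in Itgb1bp1 of these 3 did the groups not overlap.

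Other genes of matrix and adhesion, from 6 lists, numbered 7 called. The lists had 1, 10, 14, 18, 29 and 11 tested genes, and 3.08% of all tested genes were called. Of 14 tested other integrin ligands 2 rose and 0 fell: the osteopontin gene Spp1 (log2 change 4.49, SE 0.29) and the fibronectin gene Fn1 (2.84, SE 0.40), with a list median of 0.07. Among 29 tested genes of focal adhesions and integrin activation, Fermt3, the kindlin of blood cells that activates Itgb2 receptors, rose from 4.04 ± 2.14 to 37.2 ± 13.5 scaled reads (2.95, SE 0.53), having entered the test through its MCAO values, and Vcl, which encodes the actin linker vinculin, fell from 60.4 ± 16.3 to 25.1 ± 7.19 (-1.24, SE 0.31, adjusted p = 0.0484). The median of that list was 0.17. The call of Fermt3 was lost without MCAO 3 (adjusted p = 0.0806), and that of Vcl without control 1, control 3, MCAO 2 or MCAO 3 (0.0903 to 0.178), with TMM scaling (0.0535) or with a pseudocount of 0.1 (0.0516).

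Of 18 tested genes for folding, modifying and crosslinking collagen 1 rose and 0 fell, with a median of 0.30. It was Ppib, a prolyl isomerase of the endoplasmic reticulum that acts on collagen, at 237, 160 and 190 scaled reads in controls and 319, 345 and 356 after MCAO (log2 change 0.81, SE 0.17, adjusted p = 0.0173). Among 11 tested matrix proteases and inhibitors the metalloproteinase inhibitor Timp1 rose, with controls 1 and 2 at the floor value of 1 and 21.8 to 57.9 scaled reads after MCAO, through which it entered the test, and the inhibitor Timp3 fell from 1135 ± 276 to 643 ± 57.8 (-0.79, SE 0.18). Ppib was not called without control 3 (adjusted p = 0.0555) or MCAO 3 (0.0877), and Timp3 kept its call without control 2 but lost it without each of the other libraries (0.0561 to 0.126). Of 10 tested basement membrane linkers and matrix receptors 0 were called, with a median of -0.18. Sparc, with the highest mean of scaled reads in the list, had means of 11464 ± 4001 and 9614 ± 1713. It was called lower (log2 change -0.64, adjusted p = 0.0356) with control 2 and MCAO 2 left out, a choice made after seeing the data.

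Vessel cells make many of the laminins and the type IV collagen. Few of their markers could be tested, and the part of these cells in the laminin and collagen values was not tested. Of 14 endothelial markers 7 were in the table and 5 tested, and 0 were called, and their sum was 110 to 134 scaled reads in controls against 99.9 to 134 in MCAO libraries. Cdh5, Kdr and Tek are not analysed here. Of 13 pericyte and smooth muscle markers 6 were in the table and 4 tested. Among these Cspg4, which precursors of oligodendrocytes also express, rose by 1.18 (SE 0.30), a call lost with any library but MCAO 2 left out (adjusted p 0.0554 to 0.188). The summed level of the list was 301 to 395 in controls and 313 to 403 after MCAO. Oligodendrocyte markers rose in 4 of 10 genes, with a median of 0.61.

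For the 34 members that were not called, the data set limits rather than show equality. The 95% interval lay within a 2-fold change in either direction for 16 of them, and reached past it for 18. With 3 mice per group, leaving out MCAO 3 left 1 called member, Itgb2, and the model without an intensity trend did the same.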

How the data were processed

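Scaled reads of 6 libraries, 3 MCAO and 3 control mice, were taken from the table that the authors deposited. These are normalised signal values, read counts divided by 1 factor per library, with values under 1 listed as 1. The submitters' processing notes name mm10, CASAVA 1.8, HISAT2, Partek 6.6, R 3.3.1 and DESeq2 without roles. The sources used here do not give the strand setting, the counting step, the gene filter or how technical replicates were joined. Without strand, overlapping genes cannot be told apart.

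All 12549 genes with a mean of at least 10 were fitted with limma 3.58.1 in R 4.3.3, on log2(value + 1) with an intensity trend, two-sided, with Benjamini-Hochberg adjustment. A log2 change on this scale understates the change of low genes. Division by the step of each column gave whole numbers of reads (tolerance 0.1) for 99.95% of values above the floor in control 1 and 100% in the other libraries, though a stricter reading of the lowest values passed in MCAO 2 only. These reads, with the floor set to 0, were tested with edgeR 4.0.16 (quasi-likelihood), which called 520 genes in all and 4 members. The recovery of reads and the limma and edgeR fits were tested on simulated data, and the other steps were not. Gene positions are from RefSeq GRCm38.p6, where 38 members matched by symbol and 1 by an older symbol. Members and lists were chosen with earlier results of these data known. Named genes are all members and, from the other lists, genes chosen by a rule. Of each list it took up to 3 called genes with the smallest p, or else the gene with the highest mean of scaled reads. Not every gene so chosen is named. P-values refer to the spread between these mice, which includes counting error. In limma this spread is moderated toward an intensity trend over all tested genes. The values of 1 member that is included in the counts are not reported here.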

Additional observations from a re-analysis of the deposited data

How the results depend on the processing

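Called members numbered 3 in the main analysis, 1 without an intensity trend and 6 with library weights (chosen after seeing the data), and 1 to 3 when 1 library was left out. Members called higher numbered 1 with the minimum mean raised to 50 (Col16a1 lies below it), 1 without an intensity trend, 5 with library weights, and 1 to 3 with 1 library left out; members called lower numbered 0 without an intensity trend and 0 to 1 with 1 library left out. Called genes of the adhesion and matrix lists went from 7 to 4 with that minimum, 4 without a trend, 11 by edgeR, 14 with library weights, 13 without control 2 and MCAO 2 (chosen after seeing the data), and 3 to 9 with 1 library left out. Called marker genes went from 19 to 12 with that minimum and 30 with library weights. Over all genes 387 were called in the main analysis, 520 by edgeR, 157 without a trend, 1002 with weights, 567 without control 2 and MCAO 2, and 148 without MCAO 3. The shift of Col4a1 minus Col4a2 was 0.54 to 0.67 in all alternatives run. Without a trend Vcl, Ppib, Timp3 and Cspg4 were not called (adjusted p 0.120 to 0.183). The cause of these differences was not tested.

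The log2 changes of some members that were called in no analysis changed sign. With quantile normalisation Col26a1 was -0.062, Col4a1 -0.013 and Lama5 -0.041, and Sparc, which is no member, 0.026. By edgeR Col6a1 was 0.12, Col9a2 0.039, Itgav 0.089 and Lama5 -0.047. With library weights Col6a1 was 0.041, Itgav 0.11, Itgb4 0.031, Lama5 -0.11 and Lamb1 0.030. Without control 2 and MCAO 2 Col1a1 was 0.23, Col9a2 0.047, Col9a3 -0.28, Itga6 0.057, Itga9 0.21, Itgav 0.25, Lama5 -0.33, Lamb1 0.034 and Lamb2 0.0030. With 1 library left out the sign depended on which, and the range was -0.47 to 0.19 for Col1a1, -0.22 to 0.34 for Col26a1, -0.11 to 0.23 for Col4a1, -0.40 to 0.25 for Col6a1, -0.25 to 0.062 for Col9a2, -0.22 to 0.66 for Col9a3, -0.30 to 0.089 for Itga6, -0.61 to 0.10 for Itga9, -0.26 to 0.28 for Itgav, -0.27 to 0.012 for Itgb4, -0.25 to 0.25 for Lama4 and -0.33 to 0.46 for Lama5. No paired analysis was possible because the labels give no replicate numbers, and those used here, given in the order of the records, only name different mice.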
